A study of Mus musculus with 22 samples.

Results

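The genes described here are 10 transcription factors of the pluripotency network of mouse embryonic stem (mES) cells: Pou5f1, Nanog, Sox2, Esrrb, Tfcp2l1, Zfp42, Klf2, Klf4, Klf5 and Tbx3. They were chosen by name, as rows of the expression tables that carry one of these symbols, and all 10 were found among 55141 gene rows. Their RNA levels were followed in 22 RNA-seq libraries from 10 groups. Wild-type (wt) cells and cells labelled Hox-/-, which the study describes as lacking all Hox function, were grown in 2 dimensions as mES cells with 100 ng/ml LIF, the GSK-3 inhibitor CHIR99021 at 3 µM and a MEK inhibitor at 1 µM (2 libraries per genotype). Both genotypes were also taken through an adherent endoderm differentiation with 100 ng/ml Activin A and 3 µM CHIR99021, with collection at 120 h (3 libraries per genotype). Gastruloids, which are stem cell aggregates that model parts of the early embryo, were grown with Activin A from both genotypes, or with Chiron from wt cells only, and collected at 96 h and 120 h (2 libraries per group). No Chiron gastruloids of the Hox-/- genotype are among the samples, so every statement on genotype in gastruloids is about Activin A. The labels describe the endoderm cultures and gastruloids as mixed cells and give no gastruloid doses. The number of clones per genotype is not stated either, and an effect of genotype cannot be told apart from one of cell line.

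In mES cells these factors bind one another's genes and sustain a state from which every tissue of the embryo can form. Pou5f1 (Oct4), Sox2 and Nanog form the core of the network, with Pou5f1 and Sox2 often bound side by side on DNA. Esrrb, Tfcp2l1, Klf2, Klf4, Klf5 and Tbx3 hold the naive state, which resembles the preimplantation epiblast and is kept by LIF signalling, GSK-3 inhibition and MEK inhibition. Zfp42 (Rex1) is the classical marker of that state. As cells leave it, the naive factors are shut off first and Pou5f1 stays on through the formative and primed epiblast stages. Some of the factors have later roles as well. Sox2 is expressed in neural progenitors, Nanog and Pou5f1 in germ cells, Klf2 and Klf4 in vascular endothelium, Klf5 in epithelia and Tbx3 in several mesodermal and endodermal tissues.

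The positions below are from the authors' tables, on the mm10 build and counted from 1. Strands and gene types are from the GENCODE annotation, whose position for Tfcp2l1 differs from the authors'. Pou5f1 (ENSMUSG00000024406) lies at chr17:35506018-35510772 on the forward strand, Nanog (ENSMUSG00000012396) at chr6:122707489-122714633, forward, and Sox2 (ENSMUSG00000074637) at chr3:34650405-34652461, forward. Esrrb (ENSMUSG00000021255) lies at chr12:86361117-86521628, forward, Tfcp2l1 (ENSMUSG00000026380) at chr1:118627946-118685168, forward, and Zfp42 (ENSMUSG00000051176) at chr8:43295063-43306980 on the reverse strand. Klf2 (ENSMUSG00000055148) lies at chr8:72319033-72321656, forward, Klf4 (ENSMUSG00000003032) at chr4:55527143-55532466, reverse, Klf5 (ENSMUSG00000005148) at chr14:99298691-99315036, forward, and Tbx3 (ENSMUSG00000018604) at chr5:119670669-119684724, forward. All are annotated as protein-coding genes, and each position spans the whole gene. Whether the counting used strand is not given in the sources used here, so counts of genes that overlap others are uncertain. Gm19553, antisense in Pou5f1, reached at most 0.669 CPM (counts scaled to the library's total) in any library, and Tbx3os1, antisense at Tbx3, at most 2.7 CPM. Sox2 lies inside the long noncoding Sox2ot on the same strand, which held 0.0 to 3.02 CPM. The pseudogene Zfp42-ps1 held 52.2 CPM in wt mES cells and 5.09 CPM in wt endoderm cultures, where Zfp42 held 551 and 51.9 CPM, so reads may be split between them and Zfp42 is reported as uncertain to that extent.

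Total gene counts ran from 9108085 to 28819301 per library, and 3 counts, used here as the floor of detection, equal 0.104 to 0.329 CPM. CPM takes no account of gene length. In gastruloids time and depth go together, since the 96 h libraries held 14953662 to 28819301 counts and the 120 h libraries 9108085 to 11930416. As a check of the labels, the 39 Hox genes summed to 30.4 to 35.7 CPM in wt mES cells and 0.448 to 1.34 CPM in Hox-/- mES cells, to 828 to 877 against 22.5 to 28.6 CPM in endoderm cultures, to 625 to 660 against 102 to 104 CPM in Activin A gastruloids at 96 h, and to 1167 to 1190 against 63.8 to 69.5 CPM at 120 h. Replicates of a group differed by more than counting error, as chi-square over its degrees of freedom ran from 1.37 to 10.3 and was highest between the Chiron libraries at 96 h. The labels do not say that replicates came from separate cultures, so p-values measure the spread between these libraries, which may be technical. Endoderm markers fixed for this work (10 genes, among them Sox17 and Foxa2) summed to 295 to 301 CPM in wt and 99.9 to 107 CPM in Hox-/- endoderm cultures, with none at 3 counts or fewer in either. In mES cells the same sum was 176 to 194 CPM in wt and 172 to 173 CPM in Hox-/-, with 4 and 5 of these genes at 3 counts or fewer. By this sum Hox-/- endoderm cultures lay below mES cells, but single markers did not all follow the sum. Foxa1, Foxa2, Gata6 and Ttr were at 3 counts or fewer in the mES libraries of both genotypes, and Sox17 in those of Hox-/-. In Hox-/- endoderm cultures each of these was above 3 counts in at least 1 library.

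Sequence just upstream of the start site is shown for the members whose 250 bases hold a match to the DNA word of a POU factor. The word was chosen because Pou5f1, itself a member, is a POU factor. Whether Pou5f1 acts on these genes here was not tested. The sequences are RefSeq's, on GRCm38.p6, and 8 of the 10 members matched an entry by symbol. On the strand of the gene, 5′ to 3′, with the last base next to the start site, and with matches to the POU word (ATGCAAA, either strand) and the SOX word (CATTGT, either strand) in capitals, they read as follows.
Nanog (chr6:122707239-122707488, forward): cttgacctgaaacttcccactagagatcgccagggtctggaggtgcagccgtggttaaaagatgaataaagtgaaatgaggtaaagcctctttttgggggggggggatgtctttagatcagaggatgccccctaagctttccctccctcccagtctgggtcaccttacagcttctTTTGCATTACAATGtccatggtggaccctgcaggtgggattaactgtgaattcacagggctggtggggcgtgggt
Sox2 (chr3:34649745-34649994, forward): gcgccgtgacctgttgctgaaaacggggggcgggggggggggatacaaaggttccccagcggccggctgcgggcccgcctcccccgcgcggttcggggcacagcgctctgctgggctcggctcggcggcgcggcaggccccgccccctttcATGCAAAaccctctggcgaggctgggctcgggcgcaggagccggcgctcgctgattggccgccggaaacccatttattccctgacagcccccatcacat
Zfp42 (chr8:43307010-43307259, reverse): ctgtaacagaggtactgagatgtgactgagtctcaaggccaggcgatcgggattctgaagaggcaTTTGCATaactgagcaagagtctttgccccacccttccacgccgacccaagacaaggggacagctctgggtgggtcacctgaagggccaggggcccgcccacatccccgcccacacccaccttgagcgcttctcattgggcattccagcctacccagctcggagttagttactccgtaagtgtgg
The RefSeq start of Sox2 lies 410 bases from the start of the gene as counted in the tables, that of Zfp42 29 bases from it, and that of Nanog at the same base.

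Of 32851 such windows in RefSeq, 4.12% held the POU word, which was found in 3 of the 8 members. It lay at positions -75 to -69 in Nanog, -99 to -93 in Sox2 and -185 to -179 in Zfp42, counted back from the start site. The SOX word was present in 10.7% of windows and in 1 of the 8 members, Nanog, at -67 to -62. Within these matches Nanog, and none of the other members with an entry, held a SOX word followed after 0 or 1 base by ATGC on the same strand, at -72 to -62. That arrangement was found in 24 windows (0.0731%). The KLF word GGGTGTG, present in 6.93% of windows, was found in Esrrb at -221 to -215 and in Zfp42 at -74 to -68. Neither the ESRRB word AAGGTCA (4.08% of windows) nor the STAT word TTCCNGGAA (0.913%) was found in the 8 windows. A match describes these letters and says nothing on binding.

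All 10 factors had their highest levels in mES cells. Tfcp2l1 led by CPM, with 1544 and 1552 CPM in the wt mES libraries, followed by Pou5f1 with 1308 and 1301 CPM, Esrrb with 1030 and 1015 CPM and Nanog with 921 and 924 CPM. The Krüppel-like factors were lower, with means of 283 CPM for Klf4, 210 CPM for Klf2 and 180 CPM for Klf5. Levels of different genes can be compared only per length, and for that the authors' FPKM (fragments scaled to transcript length and to library size) were used. By FPKM, Pou5f1 led in wt mES cells with 1010 ± 1.41 (SD, n = 2), ahead of Nanog with 416 ± 1.91 and Zfp42 with 306 ± 4.78; Esrrb followed with 235 ± 1.83 and Tfcp2l1 with 165 ± 1.05. Tbx3 was lowest of the 10, with 50.3 ± 1.07 FPKM. Pou5f1 had the highest FPKM of the 10 in 8 of the 10 groups. Sox2 took its place in both groups of Activin A gastruloids at 120 h, with 19.3 FPKM against 17.4 for Pou5f1 in wt and 7.77 against 4.02 in Hox-/-.

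**Figure D1:**
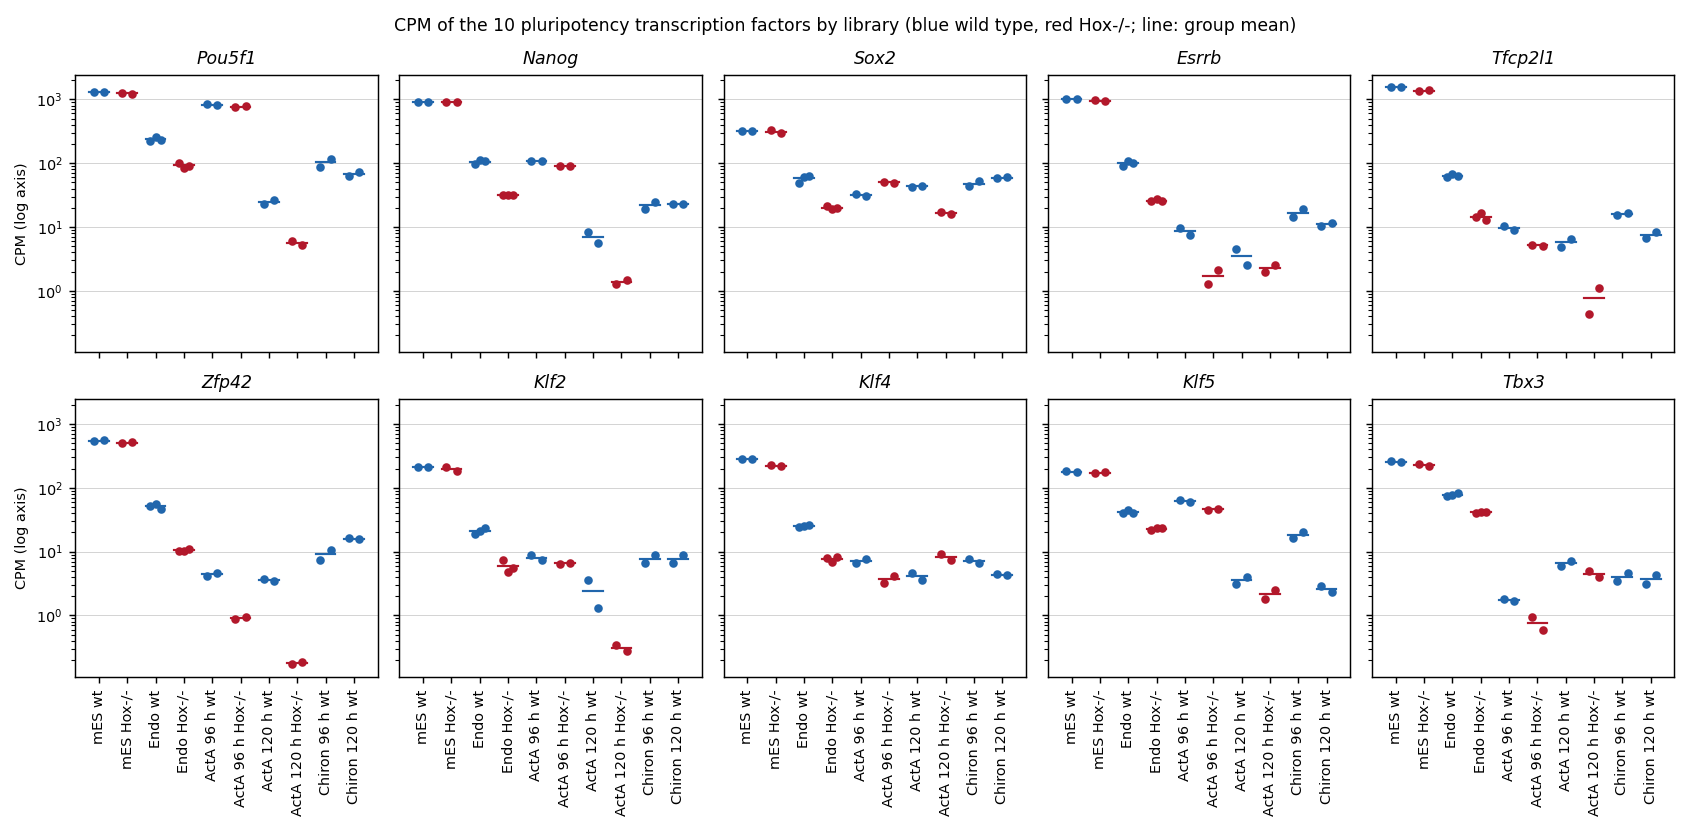
CPM (log axis) of each of the 10 factors in every library, by group, with wild type in blue, Hox-/- in red and a line at each group mean. The mES libraries stand highest in every panel, Pou5f1 remains at 760 to 831 CPM in the 4 Activin A libraries at 96 h, and Sox2 has the narrowest range, from 15.8 to 327 CPM.

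Below mES cells the factors ranked the groups differently. For Pou5f1, the next groups were the Activin A gastruloids at 96 h, at 824 ± 9.51 CPM in wt (63.2% of the wt mES level) and 767 ± 9.97 CPM in Hox-/-. They were followed by wt endoderm cultures at 237 ± 17.7 CPM (n = 3). Among neighbouring groups in this order, only Chiron gastruloids at 96 h and Hox-/- endoderm cultures overlapped. Klf5 kept the same order in its upper ranks, with 35% of the wt mES level in wt Activin A gastruloids at 96 h and 23.2% in wt endoderm cultures. Nanog was at 108 ± 1.31 CPM in wt Activin A gastruloids at 96 h and 105 ± 7.36 CPM in wt endoderm cultures, with overlapping ranges. By contrast, Esrrb, Tbx3, Klf2, Klf4, Tfcp2l1 and Zfp42 had wt endoderm cultures next after mES cells, and were below 4% of the wt mES level in every gastruloid group. The largest of these shares was 3.81%, for Klf2 in wt Activin A gastruloids at 96 h. All shares rest on library totals. With TMM factors (a scaling for library composition) over all 22 libraries, wt Pou5f1 was at 1535 CPM in mES cells. It was at 790 CPM in Activin A gastruloids at 96 h, a smaller share. Culture and any difference in sequencing run between mES and gastruloid libraries cannot be told apart. Sox2 was spread most evenly: wt Chiron gastruloids at 120 h (57.7 and 60.6 CPM), wt endoderm cultures (49.5 to 62.8 CPM), Hox-/- Activin A gastruloids at 96 h (51.0 and 49.5 CPM) and Chiron gastruloids at 96 h (43.1 and 51.7 CPM) followed mES cells, each overlapping its neighbour.

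Across the 10 group means of log2(CPM + 1), which share libraries' depth and culture, the members' profiles were most alike for Esrrb and Zfp42 (r = 0.983) and for Klf2 and Tfcp2l1 (r = 0.982). They were least alike for Pou5f1 and Tbx3 (r = 0.383), followed by Pou5f1 and Klf4 (r = 0.569). Among 11708 other genes with at least 10 CPM in some group, the profiles nearest to each core factor were those of Gca and Idh3a for Pou5f1 (r = 0.98 for both), Atp6v1d (0.988) and Dock9 (0.979) for Nanog, and Wdr76 (0.978) and Clgn (0.973) for Sox2. For Esrrb they were Tex14 (0.995) and Slc30a2 (0.991), for Tfcp2l1 Sh3gl2 and Rbfa (0.992 for both), and for Zfp42 Triml2 (0.997) and 2410141K09Rik (0.994). For Klf2 they were Nup62cl (0.993) and Rbmxl2 (0.991), for Klf4 Ly6g6e (0.989) and Lonp1 (0.986), for Klf5 Acad11 (0.985) and Zyg11a (0.982), and for Tbx3 Zfp710 (0.992) and Ubr4 (0.988). With 10 points dominated by the drop from mES cells, these values are descriptions only.

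The first comparison asked whether the genotypes already differed in pluripotent culture. A gene is called here where edgeR's quasi-likelihood test gives a Benjamini-Hochberg adjusted p under 0.05 over all genes tested. Log2 fold changes are edgeR's and are given ± SE. In mES cells 5 of the 10 factors were called lower in Hox-/- and none higher, where 10.8% of all tested genes were called lower and 12.4% higher. The differences were small, with a median log2 fold change over the 10 of -0.10, against 0.0 over all genes. Klf4, a direct target of LIF signalling, held 285 and 281 CPM in wt and 226 and 216 CPM in Hox-/-. It had the largest difference of the 10 (log2 fold change -0.36 ± 0.0462, edgeR adjusted p = 1.95e-07) and its ranges were apart. Tfcp2l1 (1544 and 1552 against 1362 and 1382 CPM, -0.18), Tbx3 (260 and 252 against 234 and 221 CPM, -0.17), Zfp42 (546 and 556 against 498 and 517 CPM, -0.12) and Esrrb (1030 and 1015 against 971 and 935 CPM, -0.10) were also called lower, with ranges that did not overlap. Pou5f1, Nanog, Sox2, Klf2 and Klf5 did not pass the test. Their log2 fold changes lay between -0.10 and -0.03, and their 95% intervals reached no further than -0.20 (Klf2) on the low side. Ranges of Pou5f1, Nanog and Klf5 were apart as well, so separate ranges did not go with a call. The share of all genes with ranges apart was not counted. The count of called members rested on single libraries: it was 2 without wt replicate 1, 3 without wt replicate 2, 7 without Hox-/- replicate 1 and 4 without Hox-/- replicate 2, and DESeq2 called 2. Klf4 and Tfcp2l1 were called in all of these.

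Other genes of the network differed in both directions between the mES genotypes. Of 15 further naive-state genes 4 were called higher and 4 lower, with Manba (log2 fold change -1.15) and Gbx2 (-1.37) the clearest lower ones and Dppa3 (0.85), a germ cell and preimplantation gene, higher. Of 14 genes shared by naive and primed cells 6 were called lower and 1 higher, among them Dnmt3l (-0.68) and Utf1 (-0.39). Formative and primed genes gave 2 higher and 3 lower of 10 tested, with Otx2, a homeobox factor of the primed epiblast, at 14.5 CPM in Hox-/- and 6.1 CPM in wt (1.25). Among 10 genes of the LIF and JAK-STAT3 pathway 5 were called lower and 1 higher, including Stat3 (-0.18) and Socs3 (-0.16) lower and Pim1 (0.42) higher. Germ cell markers summed to 529 to 552 CPM in wt and 577 CPM in both Hox-/- mES libraries (4 of 9 tested higher, none lower), and their part in these values was not tested.

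All 10 factors were lower in endoderm cultures than in mES cells of the same genotype, where 38.3% of all tested genes in wt and 37.9% in Hox-/- were called lower than in mES cells, and 41.6% and 42.7% higher. In wt cultures the median log2 fold change of the 10 was -3.33, against 0.07 over all genes. The largest drop was that of Tfcp2l1, from 1544 and 1552 CPM in mES cells to 60.4, 66.6 and 61.9 CPM (log2 fold change -4.74 ± 0.0604, edgeR adjusted p = 3.28e-22). Klf4 fell to 8.93% of its wt mES level, Zfp42 to 9.41%, Esrrb to 9.80%, Klf2 to 10.2% and Nanog to 11.4%. Sox2 and Pou5f1 kept more, 18% and 18.2%. Klf5 kept 23.2%, and Tbx3, with 74.5, 76.2 and 82.7 CPM, kept the most (30.4%, -1.83 ± 0.0546). Ranges of mES and endoderm libraries were apart for all 10, with no such share counted over all genes. Culture and any difference in sequencing run between mES and endoderm libraries cannot be told apart, and in mixed cultures fewer cells that express a gene cannot be told apart from less RNA per cell.

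In Hox-/- cultures the same genes dropped further, with a median log2 fold change from Hox-/- mES cells of -4.91. Tfcp2l1 again dropped most (-6.64 ± 0.0688) and Tbx3 least (-2.55 ± 0.0572). Relative to wt mES cells, Hox-/- endoderm cultures held 0.943% for Tfcp2l1, 1.91% for Zfp42, 2.53% for Esrrb, 2.73% for Klf4, 2.82% for Klf2, 3.46% for Nanog, 6.20% for Sox2, 7.07% for Pou5f1, 12.8% for Klf5 and 16.1% for Tbx3. These 10 shares were each below that of wt cultures.

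**Figure D2:**
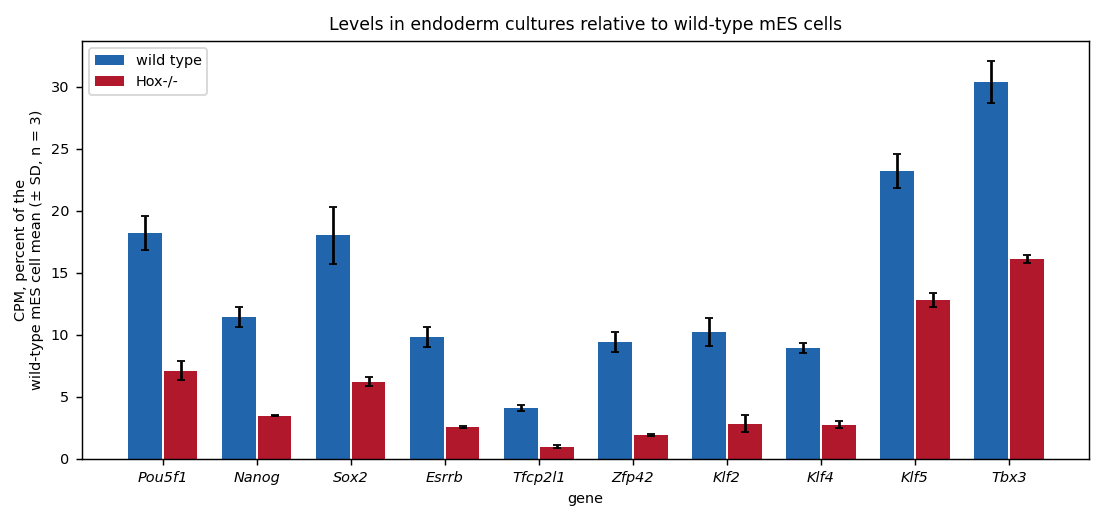
Mean CPM of each factor in endoderm cultures as a percent of the wild-type mES cell mean (bars; error bars ± SD over 3 libraries), wild type in blue and Hox-/- in red. Each red bar is lower than its blue neighbour, and Klf5 and Tbx3 keep the largest shares in both genotypes.

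Compared directly, all 10 factors were lower in Hox-/- than in wt endoderm cultures, and none was called higher. Of all tested genes 23.1% were called lower and 23.1% higher. The median log2 fold change of the 10 was -1.71, against 0.0 over all genes. Library ranges were apart for every factor, with the share over all genes not counted. Zfp42 differed most: it held 52.6, 55.9 and 47.1 CPM in wt and 10.1, 10.4 and 11.1 CPM in Hox-/-, 4.91 times less (log2 fold change -2.29 ± 0.084, edgeR adjusted p = 5.01e-11). Tfcp2l1, the grainyhead-family factor downstream of LIF, held 60.4, 66.6 and 61.9 CPM in wt and 14.3, 16.4 and 13 CPM in Hox-/- (-2.10 ± 0.0804). Esrrb, an orphan nuclear receptor that GSK-3 inhibition derepresses, held 91.3, 108 and 102 CPM in wt and 25.1, 27.0 and 25.6 CPM in Hox-/- (-1.95 ± 0.0697). The naive factors Klf2 (-1.84 ± 0.142) and Klf4 (-1.70 ± 0.096) were close behind.

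Of the core factors, Nanog held 96.8, 111 and 107 CPM in wt and 31.5, 32.0 and 32.1 CPM in Hox-/- endoderm cultures (-1.71 ± 0.063). Sox2, from 49.5 to 62.8 CPM in wt, was at 18.8 to 21.0 CPM in Hox-/- (-1.53 ± 0.0914), and Pou5f1 went from 222 to 257 CPM down to 82.5 to 102 CPM (-1.35 ± 0.074). The smallest differences were those of the factors that wt cultures kept best, Tbx3 (74.5 to 82.7 against 40.3 to 41.9 CPM, -0.91 ± 0.0601) and Klf5 (40.2 to 44.6 against 21.8 to 23.6 CPM, -0.86 ± 0.0709). The 10 differences were larger than those between the mES genotypes by a test of the difference itself, for all 10 factors (12.5% of all genes called lower and 11.6% higher in that test, edgeR). This interaction ranged from a log2 value of -0.72 ± 0.0803 for Tbx3 to -2.15 ± 0.0942 for Zfp42.

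Related genes moved with the factors in the endoderm comparison. Of 15 further naive-state genes 14 were lower in Hox-/- and none higher, with a median of -1.92. Dppa5a, an RNA-binding protein gene of pluripotent cells, held 258 CPM in wt and 50.2 CPM in Hox-/- (-2.36), and Fbxo15, a classical Pou5f1 and Sox2 target, 21.1 and 2.68 CPM (-2.98). Of 13 tested shared pluripotency genes 10 were lower and 1 higher, including Dnmt3l (-2.14), Utf1 (-1.99) and Tdgf1 (-1.21), a co-receptor of Nodal. Formative and primed genes were split: 7 of 12 were lower, among them Fgf5 (-2.17) and Otx2 (-1.51), and 4 were higher, led by the Wnt effector Lef1 (0.87). The pathway and repressor lists showed fewer calls, with 3 lower and 2 higher of 10 LIF and JAK-STAT3 genes and 2 lower and 1 higher of 6 repressors. Markers of other cell types differed between these cultures too. Epithelial markers summed to 1242 to 1282 CPM in wt and 780 to 860 CPM in Hox-/- (10 of 10 lower), the endoderm markers given above were lower for 9 of 9 tested, germ cell markers summed to 288 to 295 against 197 to 212 CPM (7 of 9 lower), and caudal progenitor markers summed to 521 to 588 against 766 to 835 CPM (7 of 9 higher). Neural progenitor markers, given because Sox2 also marks such cells, summed to 195 to 199 CPM in wt and 253 to 289 CPM in Hox-/-. Of these 10 genes, 3 were at 3 counts or fewer in each genotype. The sum was thus higher in Hox-/-, where Sox2 was lower. None of the endoderm, epithelial or caudal markers was at 3 counts or fewer in all libraries of either group, and 1 germ cell marker was in Hox-/-. Their part in the lower levels of the factors was not tested.

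In Activin A gastruloids at 96 h, Pou5f1 held 831 and 818 CPM in wt and 760 and 774 CPM in Hox-/- and was not called (log2 fold change -0.05 ± 0.0363, edgeR adjusted p = 0.27, 95% interval from -0.12 to 0.02). Nanog held 109 and 107 CPM in wt and 90.2 and 91.8 CPM in Hox-/- and was slightly lower (-0.20 ± 0.0466, edgeR adjusted p = 0.000494; with DESeq2 adjusted p = 0.0884). Sox2 was the one factor called higher, with 32.7 and 30.4 CPM in wt and 51.0 and 49.5 CPM in Hox-/- (0.73 ± 0.0597, edgeR adjusted p = 1.34e-14). In all, 7 of the 10 were called lower and 1 higher, where the calls over all genes were 16.7% lower and 22.2% higher. The median of the 10 was -0.62, against 0.03 over all genes. Ranges were apart for each of the 10, also for Pou5f1 and Klf2, which were not called. The share over all genes was not counted.

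Among the factors lower in Hox-/- at 96 h, Esrrb held 9.73 and 7.60 CPM in wt and 1.26 and 2.14 CPM in Hox-/- (-2.34 ± 0.205, edgeR adjusted p = 1.06e-13), the largest difference of the 10. Zfp42 followed, from 4.22 and 4.69 CPM to 0.888 and 0.936 CPM (-2.24 ± 0.242). Tbx3, at 1.78 and 1.71 CPM in wt and 0.935 and 0.602 CPM in Hox-/- (-1.07 ± 0.308), rested on few counts, and its call was lost without Hox-/- replicate 2 (-0.84, adjusted p = 0.0597). Klf4 (6.62 and 7.71 against 3.23 and 4.15 CPM, -0.94), Tfcp2l1 (10.4 and 9.03 against 5.28 and 5.02 CPM, -0.85) and Klf5 (65.4 and 60.7 against 45.6 and 46.7 CPM, -0.40) were lower. Klf2 was not called (-0.23 ± 0.149, interval from -0.52 to 0.06). On log2(FPKM + 1) with limma 5 members were called in place of 8, and on log2(FPKM + 0.1) 4.

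Beside these values at 96 h, 6 of 12 tested naive-state genes were lower and 3 higher, with Dppa5a lower (-1.68) and Gbx2 higher (1.62). Among primed genes Otx2 held 104 CPM in wt and 5.74 CPM in Hox-/- (-4.08) and Fgf5 132 and 31.5 CPM (-2.02), within a count of 5 lower and 4 higher of 12. Shared pluripotency genes gave 7 lower and 1 higher of 13 tested, including Tdgf1 (-1.29). Of the LIF and JAK-STAT3 genes 4 of 10 were lower, among them the receptor Lifr (-1.52), and 4 were higher, among them Socs3 (0.89). Tcf7l1, the repressor that holds down Esrrb and other naive genes, was lower (-1.19), with 2 of 6 repressors lower and 1 higher. Since Sox2 also marks neural progenitors, their markers are given beside it: 10 genes summed to 187 to 191 CPM in wt and 237 to 241 CPM in Hox-/-, 4 were called higher and 1 lower, Sox1 was higher (2.28) and 1 was at 3 counts or fewer in each genotype. Epithelial markers summed to 1074 to 1179 against 715 to 731 CPM (8 of 10 lower, 1 higher), endoderm markers to 276 to 308 against 32.6 to 37.0 CPM (8 of 10 lower, none higher, 1 at 3 counts or fewer in Hox-/-), and caudal progenitor markers to 2990 to 3115 against 3912 to 3964 CPM (7 of 9 higher, 1 lower). The part of such cells in the values of Sox2 and the naive factors was not tested.

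By 120 h most factors were lower in Hox-/- Activin A gastruloids. Of the 10, 7 were called lower and 1 higher, where 25.5% of all genes were called lower and 24.9% higher. The median of the 10 was -1.64, against -0.02 over all genes. Ranges were apart for all 10, also for Esrrb and Tbx3, which were not called. The share over all genes was not counted. Pou5f1 held 23.0 and 26.1 CPM in wt and 6.03 and 5.14 CPM in Hox-/-, 4.05 times less (log2 fold change -2.02 ± 0.127, edgeR adjusted p = 5.50e-19). Nanog went from 8.22 and 5.6 CPM in wt to 1.29 and 1.5 CPM in Hox-/- (-2.20 ± 0.253, edgeR adjusted p = 2.26e-10). Sox2, higher in Hox-/- at 96 h, was lower at 120 h, with 43.0 and 43.3 CPM in wt and 17.4 and 15.8 CPM in Hox-/- (-1.26 ± 0.0914, edgeR adjusted p = 8.86e-17).

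Zfp42, Klf2 and Tfcp2l1 were near the floor in Hox-/- gastruloids at 120 h. Zfp42 held 3.78 and 3.51 CPM in wt and 0.172 and 0.187 CPM in Hox-/-, from 67 and 4 counts in all. The ratio of wt to Hox-/- was 20.3 with a counting interval (95%) of 7.58 to 76.8, and edgeR's log2 fold change was -4.18 ± 0.485. For Klf2 the wt libraries differed, at 3.57 and 1.32 CPM, while Hox-/- held 0.345 and 0.281 CPM from 7 counts. Its ratio was 7.81 (3.49 to 20.5), and edgeR's value of -2.82 ± 0.521 became -1.93 without wt replicate 1. Tfcp2l1 held 4.86 and 6.59 CPM in wt and 0.431 and 1.12 CPM in Hox-/- (-2.78 ± 0.329, or -3.59 without Hox-/- replicate 2). Intervals of counts cover counting error only.

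Klf4 was the exception at 120 h: it held 4.65 and 3.62 CPM in wt and 9.14 and 7.39 CPM in Hox-/-, 2.16 times more (1.11 ± 0.205, edgeR adjusted p = 9.23e-06). By FPKM, Klf4 came next after Sox2 and Pou5f1 in that group, with 2.42 ± 0.402 FPKM. Esrrb was not called (4.54 and 2.53 CPM in wt, 1.98 and 2.52 CPM in Hox-/-, -0.55 ± 0.308, interval from -1.15 to 0.06), although its adjusted p was 0.0219 without wt replicate 2 (-0.91). Tbx3 was not called either (-0.44 ± 0.213, interval from -0.86 to -0.03). Klf5, with 3.13 and 4.06 against 1.81 and 2.52 CPM, stood at the threshold (-0.63 ± 0.269, edgeR adjusted p = 0.0485). Its call was lost without wt replicate 2 (-0.44, adjusted p = 0.331) and without Hox-/- replicate 1 (-0.39, adjusted p = 0.355), and with DESeq2 (adjusted p = 0.099).

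**Figure D3:**
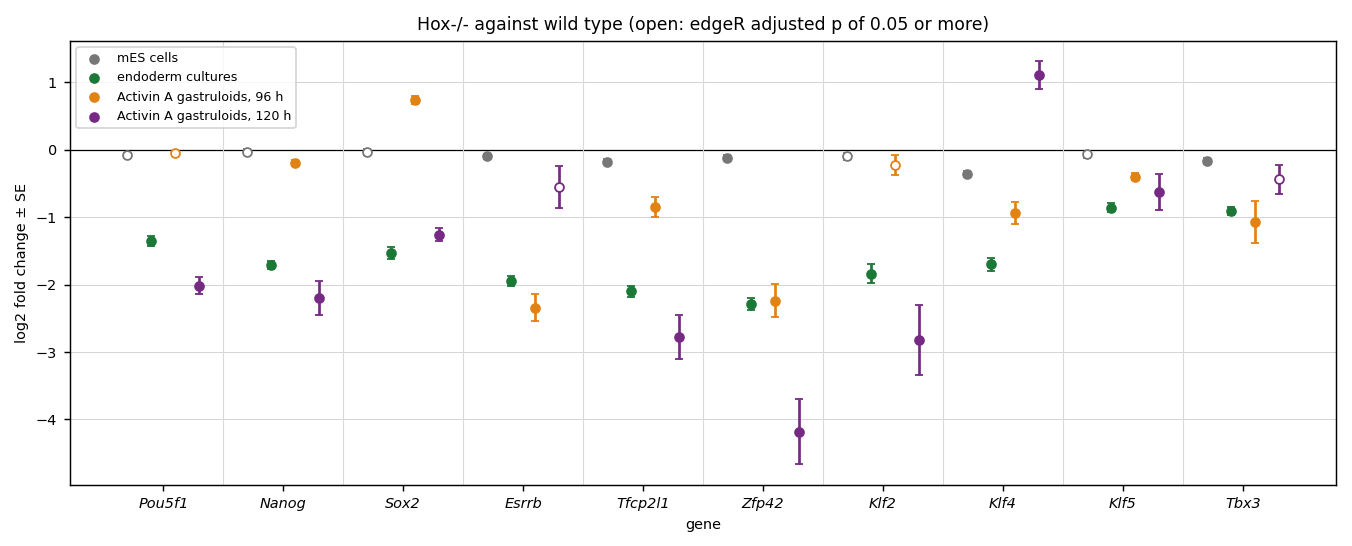
Log2 fold change (± SE) of Hox-/- against wild type for each of the 10 factors in the 4 settings, with open points where the edgeR adjusted p was 0.05 or more. Values in mES cells lie between -0.36 and -0.03, all 10 endoderm values lie between -2.29 and -0.86, and the only values above 0 are Sox2 at 96 h (0.73) and Klf4 at 120 h (1.11).

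Related genes at 120 h again went both ways. Dppa5a (32.8 CPM in wt, 2.48 CPM in Hox-/-, -3.62) and Utf1 (5.39 and 0.277 CPM, -4.17) were lower, while Sall4, a zinc finger factor shared by pluripotent and mesodermal cells, was higher (239 and 344 CPM, 0.64). Naive-state genes gave 6 lower and 3 higher of 12 tested, shared pluripotency genes 7 lower and 3 higher of 13, and formative and primed genes 4 lower and 5 higher of 12, with Lef1 higher (2.38) and Otx2 lower (-3.63). Of 10 LIF and JAK-STAT3 genes 4 were lower and 3 higher, and of 6 repressors 1 was lower, Nr2f1 (-1.76), and 4 were higher. Epithelial markers summed to 875 to 892 CPM in wt and 56.1 to 56.6 CPM in Hox-/- (10 of 10 lower, none at 3 counts or fewer). Neural progenitor markers summed to 170 to 178 against 115 to 122 CPM, with 6 of 10 lower, including Sox21 (-4.51) and Pax6 (-4.16), 3 higher and 1 at 3 counts or fewer in Hox-/-. Germ cell markers summed to 115 to 116 against 30.9 to 31.0 CPM (4 of 7 tested lower, none higher), with 5 of 11 at 3 counts or fewer in wt and 6 in Hox-/-. Endothelial markers summed to 39.7 to 45.6 against 67.5 to 68.2 CPM (5 of 9 higher, with Kdr at 27.8 and 45.4 CPM, and 1 at 3 counts or fewer in Hox-/-). Presomitic and somitic mesoderm markers summed to 645 to 648 against 1690 to 1705 CPM (9 of 10 higher, none lower). Of the members named above as expressed in endothelium, Klf4 was higher in Hox-/- and Klf2 lower (-2.82). The part of these cell types in the values of Sox2, Pou5f1, Nanog, Klf2 and Klf4 was not tested.

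Across the 4 genotype comparisons, which share no libraries, Tfcp2l1 and Zfp42 were called lower in all 4. Nanog, Esrrb, Klf5 and Tbx3 were called lower in 3 and higher in none, and Pou5f1 and Klf2 lower in 2 and higher in none. Klf4 was called lower in 3 and higher in 1, and Sox2 lower in 2 and higher in 1. In single comparisons 10.8% to 25.5% of all tested genes were called lower and 12.4% to 24.9% higher. The share of all genes called in several of them was not counted. These counts include calls that were lost when a single library was left out, such as those of Zfp42 in mES cells, Tbx3 at 96 h and Klf5 at 120 h.

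The comparisons of time and of treatment below use the same wt Activin A libraries as the genotype comparisons, so they are given side by side and not as independent evidence of one another. From 96 h to 120 h in wt Activin A gastruloids, the largest falls were those of Pou5f1, Klf5 and Nanog, which had the highest CPM of the 10 at 96 h. This order did not hold in the other series given below. In wt Activin A gastruloids Pou5f1 fell from 831 and 818 CPM to 23.0 and 26.1 CPM, 35.3 times (log2 fold change -5.14 ± 0.0573, edgeR adjusted p = 5.83e-51). Klf5 fell from 65.4 and 60.7 to 3.13 and 4.06 CPM (-4.20 ± 0.117) and Nanog from 109 and 107 to 8.22 and 5.6 CPM (-4.04 ± 0.0909). The factors already low at 96 h fell less, with log2 fold changes of -1.77 for Klf2, -1.36 for Esrrb, -0.87 for Klf4 and -0.83 for Tfcp2l1. Without wt replicate 1 at 120 h the Klf2 value was -2.67. Tbx3 rose from 1.78 and 1.71 to 6.05 and 7.14 CPM (1.84 ± 0.221), and Sox2 rose from 32.7 and 30.4 to 43.0 and 43.3 CPM (0.38 ± 0.0709). Zfp42 was not called (-0.37 ± 0.212). This made 7 lower and 2 higher of 10, where 37.8% of all genes were called lower and 37.2% higher. Shared pluripotency genes summed to 3218 to 3281 CPM at 96 h and 1825 to 1834 CPM at 120 h, and of 13 tested 10 were lower and 1 higher, with a median of -1.16. Among the lower were Tdgf1, which fell from 572 to 10.2 CPM, and L1td1, an RNA-binding protein gene, which fell from 161 to 2.94 CPM. Of 12 formative and primed genes 10 were lower and 1 higher, and of 12 naive-state genes 7 and 2. Neural progenitor markers, given beside the rise of Sox2, summed to 187 to 191 CPM at 96 h and 170 to 178 CPM at 120 h, with 7 of 10 higher, 3 lower and 1 at 3 counts or fewer at 96 h. Epithelial markers summed to 1074 to 1179 and 875 to 892 CPM (5 of 10 lower, 2 higher), and presomitic and somitic markers to 212 to 226 and 645 to 648 CPM (7 of 10 higher, 3 lower). Their part in the changes of the factors was not tested.

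In Hox-/- Activin A gastruloids Pou5f1 fell from 760 and 774 CPM to 6.03 and 5.14 CPM (-7.11 ± 0.0709) and Nanog from 90.2 and 91.8 to 1.29 and 1.5 CPM (-6.04 ± 0.125). Sox2 fell from 51.0 and 49.5 to 17.4 and 15.8 CPM (-1.61 ± 0.0803), where it had risen in wt. Klf5 (-4.43), Klf2 (-4.36), Tfcp2l1 (-2.76) and Zfp42 (-2.31) fell too, the last from 33 to 4 counts over both libraries (ratio 5.06, counting interval 1.8 to 19.7). Without Hox-/- replicate 2 at 120 h the value of Tfcp2l1 was -3.57. The ratio of Klf2, from 237 and 7 counts, was 20.8 (9.92 to 52.2). Klf4 rose from 3.23 and 4.15 to 9.14 and 7.39 CPM (1.18 ± 0.181) and Tbx3 from 0.935 and 0.602 to 4.91 and 4.02 CPM (2.46 ± 0.287). Esrrb was not called (0.44 ± 0.318), with overlapping ranges, and was called without Hox-/- replicate 2 at 96 h (0.80, adjusted p = 0.0449). In all, 7 were lower and 2 higher, where 37.6% and 34.9% of all genes were, with a median of -2.54 against -1.11 in wt. L1td1 fell from 177 to 0.734 CPM, and 9 of 13 tested shared pluripotency genes were lower and 1 higher. In these gastruloids epithelial markers summed to 715 to 731 CPM at 96 h and 56.1 to 56.6 CPM at 120 h (10 of 10 lower, none at 3 counts or fewer), neural progenitor markers to 237 to 241 and 115 to 122 CPM (4 of 10 lower, 2 higher, 1 at 3 counts or fewer at each time), and presomitic and somitic markers to 287 to 311 and 1690 to 1705 CPM (8 of 10 higher, 1 lower). Their part in the changes of the factors was not tested here either.

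The change with time differed between the genotypes for 8 of the 10 factors by the interaction test, 6 with a lower and 2 with a higher value in Hox-/-, where 20.2% of all genes were called lower and 18.7% higher. Lower values were those of Klf2 (-2.59 ± 0.553), Nanog (-2.0 ± 0.259), Sox2 (-1.99 ± 0.109), Pou5f1 (-1.97 ± 0.133), Zfp42 (-1.94 ± 0.668) and Tfcp2l1 (-1.93 ± 0.38). The value of Zfp42 lost its call without Hox-/- replicate 1 at 120 h (-1.88, edgeR adjusted p = 0.0981) or replicate 2 (-1.99, adjusted p = 0.0745), and with DESeq2 (adjusted p = 0.106). Without wt replicate 1 at 120 h Klf2 was at -1.69, and without Hox-/- replicate 2 at 120 h Tfcp2l1 was at -2.74. Higher values were those of Klf4 (2.05 ± 0.261) and Esrrb (1.80 ± 0.391). Klf5 (-0.23 ± 0.275) and Tbx3 (0.62 ± 0.379) did not pass the test.

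**Figure D4:**
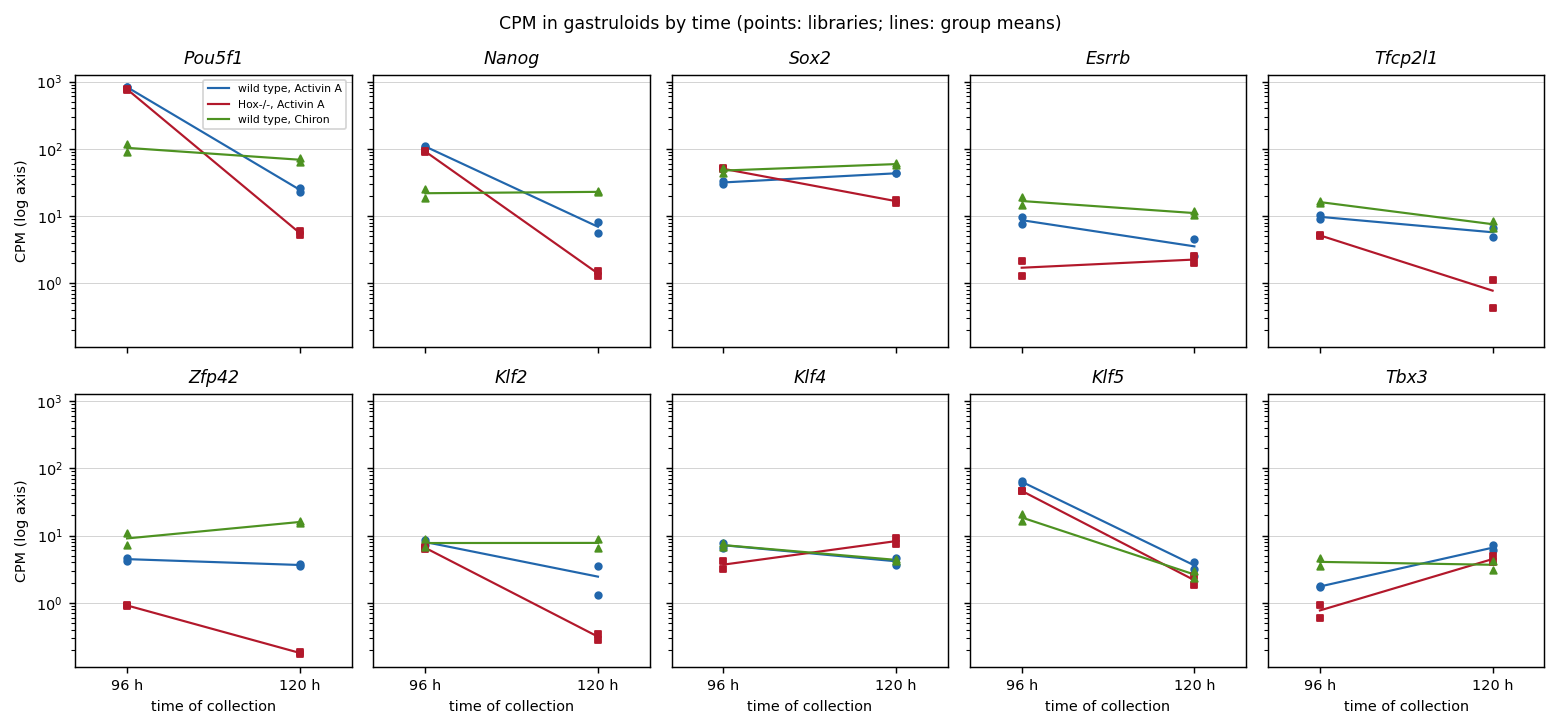
CPM (log axis) of the 10 factors at 96 h and 120 h in wild-type Activin A (blue circles), Hox-/- Activin A (red squares) and wild-type Chiron gastruloids (green triangles), with lines through the group means. Pou5f1 and Nanog fall steeply in both Activin A series, while with Chiron Pou5f1 changes by -0.71 (log2) and Nanog by -0.06, which was not called, and Klf4 rises in the red series, from 3.69 to 8.26 CPM.

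In Chiron gastruloids Pou5f1 fell over the same interval from 88.3 and 118 to 63.9 and 73.4 CPM (-0.71 ± 0.0915, edgeR adjusted p = 4.51e-07), or -0.45 without Chiron replicate 2 at 96 h. Nanog was at 18.8 and 24.8 CPM at 96 h and 22.5 and 23.2 CPM at 120 h, with overlapping ranges (-0.06 ± 0.112, interval from -0.28 to 0.16). Klf5 fell from 16.5 and 20.6 to 2.93 and 2.33 CPM (-2.92 ± 0.171), and Tfcp2l1 (-1.22), Klf4 (-0.82) and Esrrb (-0.72) were lower. Zfp42 rose from 7.30 and 10.8 to 16.3 and 15.5 CPM (0.69 ± 0.146, or 1.05 without Chiron replicate 2 at 96 h). Sox2 was called higher by a small amount (0.20 ± 0.0775, edgeR adjusted p = 0.0265), which was lost without Chiron replicate 1 at 96 h (0.12) or without either Chiron library at 120 h (0.22 and 0.17). Klf2 and Tbx3 were not called. The counts were 5 lower and 2 higher of 10, where 33.2% of all genes were lower and 28.5% higher.

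Activin A, a ligand of the Activin and Nodal receptors, and Chiron, a GSK-3 inhibitor that activates Wnt signalling, were compared in wt gastruloids at matched times. At 96 h Pou5f1, Nanog and Klf5 were higher with Activin A. Pou5f1 held 831 and 818 CPM with Activin A and 88.3 and 118 CPM with Chiron, 7.60 times more (log2 fold change 2.93 ± 0.0806, edgeR adjusted p = 1.54e-19). Nanog held 109 and 107 against 18.8 and 24.8 CPM (2.23 ± 0.0853) and Klf5 65.4 and 60.7 against 16.5 and 20.6 CPM (1.69 ± 0.0841). Lower with Activin A were Tbx3 (1.78 and 1.71 against 3.50 and 4.61 CPM, -1.30), Zfp42 (4.22 and 4.69 against 7.30 and 10.8 CPM, -1.10), Esrrb (9.73 and 7.60 against 14.5 and 18.9 CPM, -1.03) and Tfcp2l1 (10.4 and 9.03 against 15.5 and 16.7 CPM, -0.80). Sox2 was lower as well (32.7 and 30.4 against 43.1 and 51.7 CPM, -0.66). Klf2 (-0.04 ± 0.167, interval from -0.36 to 0.29) and Klf4 (-0.05 ± 0.137, interval from -0.32 to 0.21) were not called. This made 5 lower and 3 higher of 10, where 30.2% of all genes were lower and 31.3% higher. Of 12 formative and primed genes 7 were higher and 3 lower, with a median log2 fold change of 0.98. Among them Fgf5 held 132 CPM with Activin A and 1.05 CPM with Chiron (6.92) and Otx2 104 and 1.71 CPM (5.79). Of 14 shared pluripotency genes 5 were higher, among them Tdgf1 (572 and 13.4 CPM, 5.32), and 6 were lower, and of 15 naive-state genes 10 were lower and 1 higher. Epithelial markers summed to 1074 to 1179 CPM with Activin A and 203 to 236 CPM with Chiron (10 of 10 higher, none at 3 counts or fewer), endoderm markers to 276 to 308 against 114 to 121 CPM (6 of 10 higher, 1 lower), and presomitic and somitic markers to 212 to 226 against 1708 to 2005 CPM (10 of 10 lower). Their part in these differences was not tested.

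At 120 h the order of Pou5f1 and Nanog was turned. Pou5f1 held 23.0 and 26.1 CPM with Activin A and 63.9 and 73.4 CPM with Chiron (-1.53 ± 0.123, edgeR adjusted p = 5.00e-10), and Nanog 8.22 and 5.6 against 22.5 and 23.2 CPM (-1.77 ± 0.166). Zfp42 had the largest difference, with 3.78 and 3.51 against 16.3 and 15.5 CPM (-2.18 ± 0.208). Esrrb (-1.68 ± 0.242), Klf2 (-1.69 ± 0.296, or -2.58 without Activin A replicate 1) and Sox2 (-0.50 ± 0.0879) were lower too. Tbx3 was called higher (6.05 and 7.14 against 3.10 and 4.24 CPM, 0.81 ± 0.233), a call lost without Chiron replicate 1 (0.59, adjusted p = 0.127) or Activin A replicate 2 (0.69, adjusted p = 0.0772) and with DESeq2. Klf4, Klf5 and Tfcp2l1 were not called (-0.12, 0.38 and -0.43), though Tfcp2l1 was without Activin A replicate 2 (-0.67, adjusted p = 0.0435). In all, 6 were lower and 1 higher of 10, where 21.6% and 20.3% of all genes were. Of the naive-state genes, 13 of 15 were lower and 1 higher, among the lower Dppa5a (32.8 and 150 CPM, -2.24), while Otx2 (5.06) and Fgf5 (5.44) were higher with Activin A at this time too. At 120 h the epithelial markers summed to 875 to 892 CPM with Activin A and 79.3 to 83.8 CPM with Chiron (10 of 10 higher), endoderm markers to 326 to 337 against 52.7 to 58.5 CPM (9 of 10 higher, 1 lower), and presomitic and somitic markers to 645 to 648 against 1174 to 1204 CPM (8 of 10 lower, none higher), with none of these at 3 counts or fewer. Cardiac and lateral mesoderm markers summed to 69.7 to 76.0 against 8.3 to 12 CPM (7 of 9 tested higher, none lower), with 1 of 10 at 3 counts or fewer with Activin A and 4 with Chiron. Whether these cells account for the values of the factors was not tested.

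The effect of treatment differed between the times for 6 of the 10 factors by the interaction test (18% of all genes called lower and 21.7% higher). It was lower at 120 h for Pou5f1 (-4.45 ± 0.143), Nanog (-4.00 ± 0.182), Klf2 (-1.66 ± 0.344), Klf5 (-1.31 ± 0.299) and Zfp42 (-1.07 ± 0.273), and higher for Tbx3 (2.12 ± 0.313). The call of Klf5 was lost without Chiron replicate 1 at 120 h (-1.10, edgeR adjusted p = 0.0552). Klf2 was at -2.53 without Activin A replicate 1 at 120 h. Sox2 (0.15 ± 0.116), Esrrb (-0.65 ± 0.288), Klf4 (-0.07 ± 0.269) and Tfcp2l1 (0.37 ± 0.228) were not called. Without single libraries Esrrb passed the test in 3 fits (-1.12 without Activin A replicate 1 at 120 h, -0.84 without Activin A replicate 2 at 96 h, -0.88 without Chiron replicate 2 at 96 h) and Sox2 in 1 (0.26 without Chiron replicate 1 at 96 h).

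**Figure D5:**
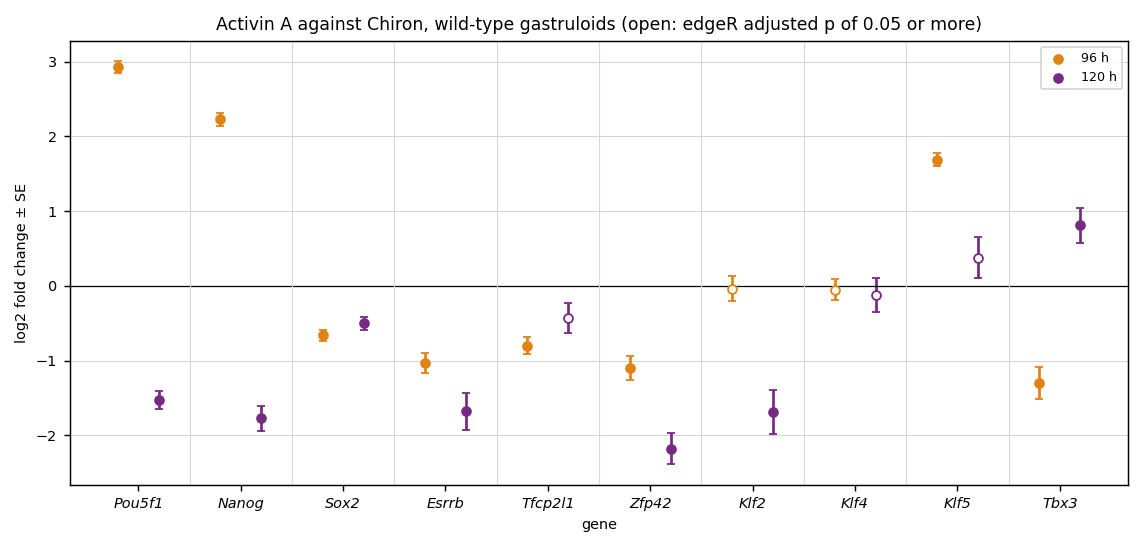
Log2 fold change (± SE) of Activin A against Chiron in wild-type gastruloids for each factor at 96 h and 120 h, with open points where the edgeR adjusted p was 0.05 or more. Pou5f1 and Nanog go from 2.93 and 2.23 at 96 h to -1.53 and -1.77 at 120 h, and Tbx3 goes from -1.30 to 0.81.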

How the data were processed

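RNA was poly-A selected and sequenced in 22 libraries, per the labels' protocols. The authors deposited 4 tables of raw counts per gene and 4 of FPKM values, and the submitters' processing notes name cutadapt 1.16, STAR, Cufflinks 2.2.1 and the mm10 build, while the role of each tool and the strand setting are not given in the sources used here. The 10 members and all lists were chosen with earlier results of these data known. Groups come from the sample labels. Members were matched by symbol and joined by gene ID. Counts were tested with edgeR 4.0.16 in R 4.3.3 (filterByExpr, TMM scaling, quasi-likelihood test, 1 coefficient per group), in fits of the mES libraries, the endoderm libraries, the Activin A gastruloids, the wt gastruloids of both treatments, and mES with endoderm libraries. All 10 members passed the filter on low counts in every fit, with 13631 to 17305 genes tested, and p-values were adjusted over all of them. An SE is the log2 fold change divided by the square root of the F statistic, and 95% intervals of log2 fold changes are normal ones from that SE. Total counts of 9108085 to 28819301 per library set the precision. Intervals of low counts are exact at 95% and cover counting error only. All 10 members are named in every comparison. Of each list the text names at most the 5 called genes with the smallest p, and per member the 2 genes of most alike profile. Alternatives were RLE factors, library totals, other count filters, DESeq2 1.42.0, limma 3.58.1 on log2(FPKM + 1) and log2(FPKM + 0.1), the replicate number as a block, the compared groups alone, and each library left out. On simulated data of 5 comparisons the fits recovered 99% to 100% of 200 changed genes, with 3.4% to 6.54% false calls. The changed genes there were well counted, with a median absolute log2 fold change near 1 and the same spread set for every gene. That spread was below edgeR's common coefficient of variation in the endoderm fit (0.0537), the fit of mES with endoderm libraries (0.0483) and that of both treatments (0.041). It was above the common value in the mES (0.0328) and Activin A (0.0263) fits. No comparison of time, of 120 h gastruloids or of interaction was simulated. The recovery therefore says nothing on members with few counts.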

Additional observations from a re-analysis of the deposited data

Results flagged for a closer look

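For 24 results the effect of a contrast differed between groups by edgeR's test of the difference itself, given here as log2 values with Benjamini-Hochberg adjusted p-values. Between 96 h and 120 h the genotype difference in Activin A gastruloids shifted for Sox2 (-1.99, adjusted p = 7.45e-21), Pou5f1 (-1.97, 2.18e-17), Nanog (-2.0, 1.25e-08), Klf2 (-2.59, 0.000153), Tfcp2l1 (-1.93, 4.50e-05), Zfp42 (-1.94, 0.0175), Klf4 (2.05, 7.81e-09) and Esrrb (1.80, 0.000195). Sox2 went from higher to lower in Hox-/- and Klf4 from lower to higher, and both were called at both times.

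The difference between Activin A and Chiron in wt gastruloids shifted between the times for Pou5f1 (-4.45, edgeR adjusted p = 3.72e-17), Nanog (-4.00, 2.05e-14), Klf2 (-1.66, 0.000463), Klf5 (-1.31, 0.00119), Zfp42 (-1.07, 0.00303) and Tbx3 (2.12, 8.93e-06). Pou5f1 and Nanog were called higher with Activin A at 96 h and lower at 120 h.

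The genotype difference was larger in endoderm cultures than in mES cells for Zfp42 (-2.15, edgeR adjusted p = 6.98e-12), Tfcp2l1 (-1.90, 1.80e-11), Esrrb (-1.82, 1.76e-11), Klf2 (-1.72, 1.35e-07), Nanog (-1.66, 1.76e-11), Sox2 (-1.47, 1.00e-08), Klf4 (-1.31, 1.14e-08), Pou5f1 (-1.25, 1.81e-08), Klf5 (-0.77, 2.54e-06) and Tbx3 (-0.72, 1.79e-06).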

How the results depend on the processing

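Of the members' log2 fold changes under settings other than leaving out a library, 1065 kept direction and side of the threshold, 42 lost the call, 8 gained one and 10 changed sign; with each library left out these counts were 697, 18, 10 and 15. The cause of the changes was not tested, except that with at least 10 counts in every library, members left the test: the called ones went from 8 to 5 for genotype in Activin A gastruloids at 96 h, from 8 to 5 at 120 h, from 9 to 5 for time in Hox-/- and from 8 to 5 for genotype by time. In mES cells edgeR called 5 members and 3168 genes, DESeq2 2 and 953, limma on log2(FPKM + 1) 0 and 23, and limma with a pseudocount of 0.1 called 1 and 372. For genotype at 96 h, edgeR's 8 members and 6546 genes became 3195 genes with DESeq2, 5 and 2665 on log2(FPKM + 1), and 4 and 2787 with the smaller pseudocount. For genotype by time, 8 members and 6544 genes became 4092 genes with DESeq2, 4 and 4193 on log2(FPKM + 1), and 4264 genes with the smaller pseudocount. In Chiron gastruloids 7 members called for time became 4 with either pseudocount. Genes called for genotype in endoderm cultures went from 6922 to 4469 on log2(FPKM + 1), and for treatment at 96 h from 10655 to 6670 with the smaller pseudocount.

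The log2 fold changes that changed sign were not called. Nanog over time with Chiron (-0.06) was 0.05 with library totals and 0.00 on both FPKM scales. For treatment at 96 h, Klf2 (-0.04) was 0.03 with library totals, 0.01 with at least 10 counts and 0.04 and 0.05 on the FPKM scales, and Klf4 (-0.05) was 0.01 with library totals. On log2(FPKM + 1) the genotype by time values of Klf5 and Tbx3 were 0.15 and -0.09. Library totals moved the median of all genes from -0.02 to -0.13 for genotype at 120 h and from 0.07 to 0.18 for wt endoderm cultures against mES cells. With TMM factors over all 22 libraries mES levels were higher (Pou5f1 in wt 1535 in place of 1305 CPM). By FPKM 5 of the 10 members kept the order of all groups. FPKM fits were not made across mES and endoderm tables.

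With single libraries left out, the members called in mES cells ranged from 2 to 7 and genes from 1477 to 3372, Sox2 from -0.12 to 0.02 and Klf2 from -0.22 to 0.01. Over time with Chiron, Nanog ranged from -0.19 to 0.20 and Klf2 from -0.35 to 0.11. For treatment, Klf2 ranged from -0.16 to 0.21 and Klf4 from -0.14 to 0.08 at 96 h, and Klf4 from -0.31 to 0.04 at 120 h. Genotype by time ranged from -0.47 to 0.00 for Klf5, and treatment by time from 0.00 to 0.26 for Sox2 and from -0.24 to 0.11 for Klf4. All 10 members stayed called for genotype in endoderm cultures without any single library.

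Replicate numbers gave no sign of pairing the samples: deviations of same-numbered libraries correlated between -0.0843 and 0.119, and in endoderm cultures at -0.0701, 0.106 and -0.0132. In groups of 2 libraries the deviations mirror each other, so the check is weak and cannot exclude pairing. With the number as a block, 6 members and 3793 genes were called in mES cells, and the members called in the other 13 comparisons were as many as without it. Depth limits Klf2, Tfcp2l1 and Zfp42 in Hox-/- gastruloids at 120 h, where 3 counts equal 0.259 and 0.281 CPM.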
